A study of Homo sapiens with 12 samples.

Results

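The zinc finger gene cluster on the long arm of chromosome 19 was followed here through its 38 listed members, 37 protein-coding ZNF genes and the antisense transcript ZNF528-AS1, out of 26641 genes in the count table. A member was any row of that table whose gene name equals one on the list, and all 38 names were found there and in the GENCODE 44 annotation of hg38. On that annotation they lie in chr19:51804816-53580269, a stretch of 1775 kb. NCCIT, a human embryonal carcinoma cell line, had been made into 6 transgenic lines, each with 1 doxycycline-inducible dCas9 fusion and 1 CARGO array (many guide RNA units assembled on 1 construct), and polyA RNA was sequenced from 2 independent biological replicates of each line after 4 days of doxycycline. The fusion was dCas9-VPR, which carries a strong activation domain (CRISPRa), or dCas9-KRAB, which carries a repression domain (CRISPRi). The array was LTR5HS Sp, LTR5HS Sa or nontarget Sp. LTR5HS is a class of long terminal repeats left by HERVK insertions, Sp and Sa name the bacterial species of the guide scaffold (S. pyogenes and S. aureus), and the dCas9 of both fusions is the S. pyogenes protein. The LTR5HS Sp lines therefore had guides that the fusion can use (recruitment, 2 libraries per fusion), while LTR5HS Sa and nontarget Sp were pooled as control (4 libraries per fusion). Every line, controls included, carried a fusion and received doxycycline, and each combination of fusion and array was represented by a single line, so a difference between lines and an effect of recruitment cannot be told apart within 1 array.

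KRAB zinc finger genes form the largest family of transcription factors in humans, and most of them stand in tandem clusters on chromosome 19 that grew by gene duplication. Their proteins bind DNA through an array of zinc fingers, and the KRAB domain brings in the corepressor TRIM28, which in turn gathers the histone methyltransferase SETDB1 and heterochromatin proteins. Many of them bind sequences inside transposable elements and keep those elements silent in embryonic cells. The KRAB domain fused to dCas9 in the repressor line works through the same corepressor.

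The guides of the LTR5HS array bear directly on where in the cluster a fusion can be placed, so the array's 12 guides, 16 bases each, were searched in hg38. An exact match on either strand followed by NGG, the motif that S. pyogenes Cas9 needs beside its target, was found at 2938 places in the genome. Matches within 1 kb of each other were joined, and 648 joined sites held at least 2 different guides. The cluster and its edges held 15 of these sites, named S1 to S15 here in order along the chromosome, with a median of 3 guides each. A guide match is a property of the reference sequence, and binding of dCas9 was not analysed here. The matches of 3 sites are shown because those sites lie beside or inside ZNF649, ZNF614 and ZNF610, the members with the nearest site. The lower-case letters are the guide and the capitals are the 3 bases read as NGG.
Site S2, guide LTR5HS-4, chr19:51906098-51906116, plus strand: agcccgacacccgtaaAGG
Site S2, guide LTR5HS-8, chr19:51906111-51906129, plus strand: taaagggtctgtgctgAGG
Site S2, guide LTR5HS-9, chr19:51906200-51906218, minus strand: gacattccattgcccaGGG
Site S2, guide LTR5HS-6, chr19:51906452-51906470, minus strand: taccatctcggagaggGGG
Site S2, guide LTR5HS-10, chr19:51906554-51906572, minus strand: atagagaaagaaaagtGGG
Site S5, guide LTR5HS-7, chr19:52026535-52026553, minus strand: aaccttggacaataccTGG
Site S5, guide LTR5HS-2, chr19:52026776-52026794, plus strand: aaaaccgccttagggcTGG
Site S5, guide LTR5HS-10, chr19:52027067-52027085, minus strand: atagagaaagaaaagtGGG
Site S8, guide LTR5HS-6, chr19:52338972-52338990, plus strand: taccatctcggagaggGGG
Site S8, guide LTR5HS-2, chr19:52339150-52339168, minus strand: aaaaccgccttagggcTGG
Site S8, guide LTR5HS-8, chr19:52339296-52339314, minus strand: taaagggtctgtgctgAGG
Site S8, guide LTR5HS-7, chr19:52339389-52339407, plus strand: aaccttggacaataccTGG

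The 5 matches of S2 lie in a stretch of 475 bp, in no annotated gene, 1.08 kb upstream of the start of ZNF649, which encodes a repressor of transcription. The 3 matches of S5 lie inside ZNF614, 1.29 kb downstream of its start, and the 4 matches of S8 lie inside ZNF610, 2.73 kb downstream of its start. ZNF432 has S7 at 3.30 kb. These 4 were the members with a site within 5 kb. Another 18 members had a site within 50 kb, so 22 of 38 (57.9%) did, against 3.99% of the 13825 genes with a position that were tested with both fusions. The median distance from a start to the nearest site was 39.0 kb for the members and 1506 kb for those genes. Sites were not spread evenly along the cluster. S13 and S14 are 722.5 kb apart, and the starts of 14 members, from ZNF611 to ZNF765, lie between them, while the next longest interval, 286.5 kb between S7 and S8, holds the starts of 6.

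The libraries held between 13601701 and 69797411 counts, with a median of 18256928, and the deepest (dCas9-KRAB nontarget Sp replicate 2) stood far above the next at 24840708. Across genes, which are not replicates, the log2 levels of the 2 libraries of a line had a Pearson's r from 0.99 to 0.994, and no pair was as close as counting noise. Levels are given as CPM (counts scaled to a common, TMM-normalized library size), and 3 counts, the limit that a count of 0 allows, corresponded to 0.0430 to 0.221 CPM. All 10 markers of pluripotent cells were detected in every library, but their summed level was 1166 to 1793 CPM in the dCas9-VPR controls and 5152 to 6406 CPM in the dCas9-KRAB controls. Among the dCas9-VPR libraries NANOG stood at 1.05 to 5.0 CPM. Of 15 markers of other cell types, 8 stayed under 1 CPM in every library, NEUROD1 and HBB among them. The summed level of the 15 was 3300 to 3324 CPM with dCas9-VPR recruitment and 428.5 to 601.5 CPM in its controls, and COL1A1 alone stood at 2898 to 3006 CPM and 60.2 to 90.1 CPM in these groups. With dCas9-KRAB the sum was 787 to 849 CPM with recruitment and 781 to 969 CPM in control. The part of these differences in the values below was not tested.

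The members were expressed at modest levels in the control lines. Per kb of gene length, the median member stood at 2.29 RPKM (CPM divided by the gene length in kb, mean of the 8 control libraries), against 5.82 RPKM for the 16646 genes tested with either fusion. The order ran from ZNF160 at 6.73 ± 1.22 RPKM (SD, n = 8) and ZNF83 at 6.63 ± 1.09 RPKM down to ZNF665 at 0.753 ± 0.188 RPKM and ZNF534 at 0.160 ± 0.112 RPKM. In 36 of the 37 neighbouring pairs in that order the control libraries overlapped. ZNF160 encodes a protein described as a repressor of TLR4 in intestinal epithelium, and ZNF534 a KRAB zinc finger protein known from early embryonic cells. ZNF534 had between 0 and 29 counts per library and was the 1 member that failed the filter on low counts in both fusions. The other 37 reached the level of the filter in the control libraries alone, so none of them entered the tests through the recruitment libraries.

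With CRISPRa the cluster rose. Of the 37 tested members, 28 were higher with recruitment and 0 were lower at an adjusted p under 0.05 (edgeR, quasi-likelihood F-test, p-values adjusted after Benjamini and Hochberg over all tested genes), where 15.7% of all 16271 tested genes were called higher. At an unadjusted p under 0.05, 32 were higher and 0 lower, and DESeq2 called 29 higher and 0 lower. The median log2 fold change of the members was 1.16, against -0.02 over all tested genes. In 21 members the rise was more than 2-fold and in 4 (ZNF577, ZNF578, ZNF649 and ZNF813) more than 4-fold. Both recruitment libraries lay above all 4 controls in 33 of the 38 members, and in 25.5% of all tested genes. When each library was left out in turn, between 23 and 29 members were called higher and 0 lower. The count was 23 without recruitment replicate 1 and 24 without recruitment replicate 2, and the members that lost their call in one or both were ZNF83, ZNF347, ZNF616, ZNF766 and ZNF816. ZNF816 also lost it without either LTR5HS Sa library. Over all tested genes the count called higher was likewise lowest in the fits without a recruitment replicate.

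**Figure D1:**
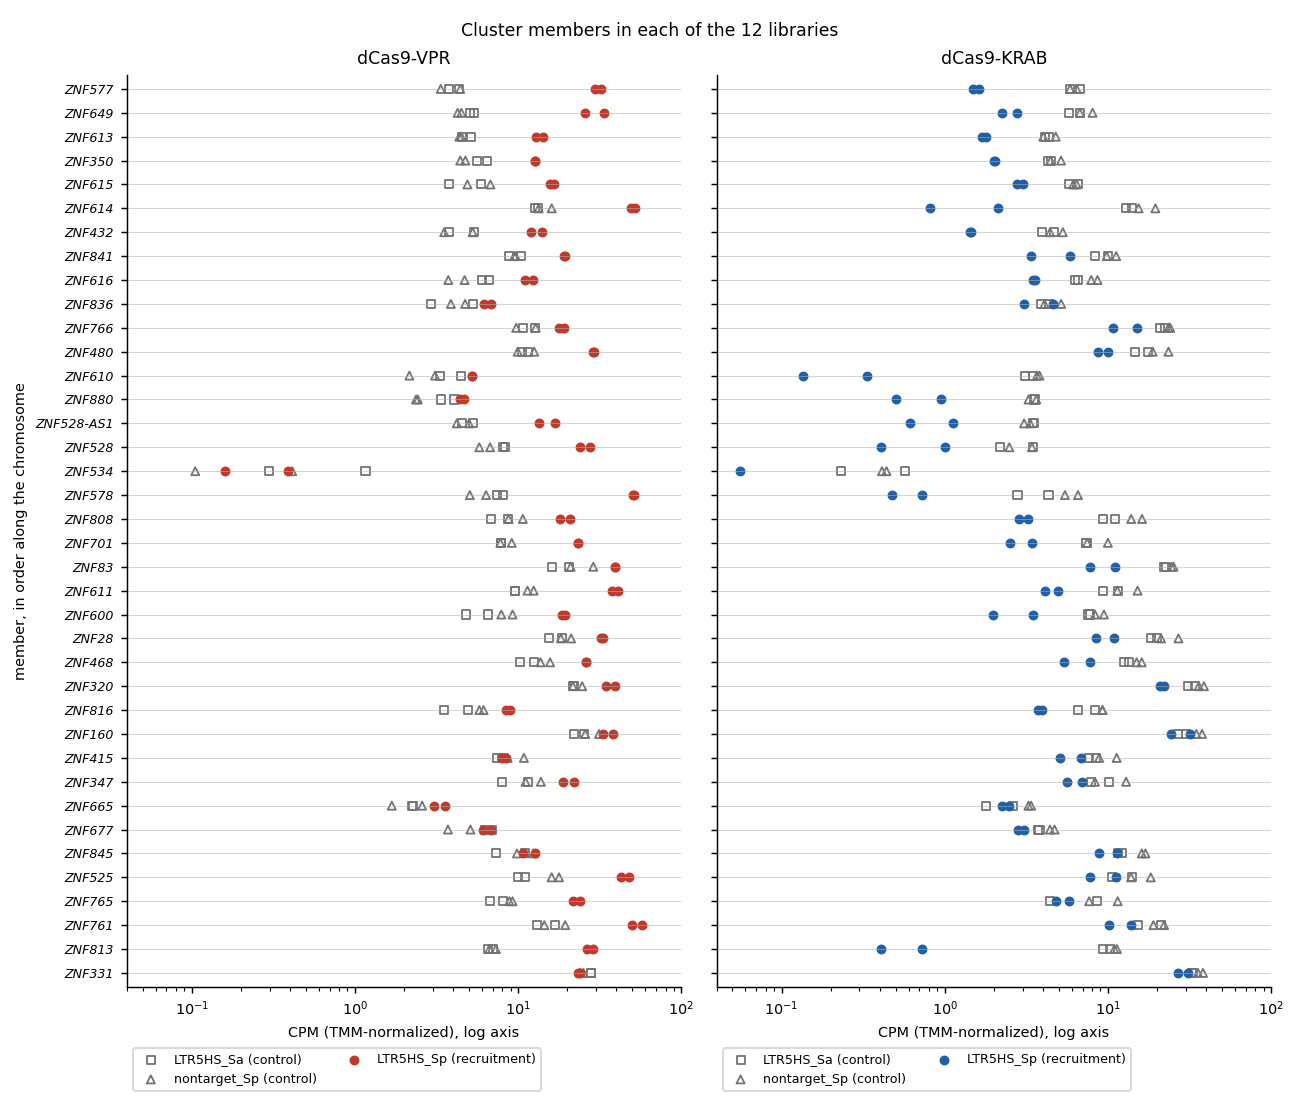
Level of each member (rows, in order along the chromosome) in each of the 12 libraries, as CPM on a log axis, with dCas9-VPR on the left and dCas9-KRAB on the right. Filled circles are the recruitment libraries and open symbols the control libraries. A value of 0 (ZNF534 in dCas9-KRAB recruitment replicate 2) is not drawn, and in 33 members the recruitment circles lie above all controls on the left.

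The largest rise was that of ZNF577, the first member of the cluster. It stood at 29.6 and 32.3 CPM with recruitment, at 3.75 and 4.32 CPM with LTR5HS Sa and at 3.35 and 4.42 CPM with nontarget Sp. The recruitment libraries were far above both control arrays, and the log2 fold change was 2.97 (SE 0.16, adjusted p = 7.49e-06). ZNF578, in the middle of the cluster, stood at 50.9 and 51.0 CPM with recruitment, at 8.07 and 7.45 CPM with LTR5HS Sa and at 5.06 and 6.36 CPM with nontarget Sp. Its recruitment libraries were nearly equal, and its log2 fold change was 2.92 (SE 0.18, adjusted p = 1.39e-05). ZNF649, which has S2 in front of its start, stood at 25.7 and 33.5 CPM with recruitment and between 4.26 and 5.36 CPM in the 4 controls, a log2 fold change of 2.63 (SE 0.17). ZNF813, near the far end of the cluster, stood at 26.5 and 28.8 CPM with recruitment and between 6.5 and 7.31 CPM in control, a log2 fold change of 2.01 (SE 0.14). In all 4 the groups were separated by several times the spread of either.

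Below these, the 8 next in size were ZNF614 (log2 fold change 1.88), ZNF611 (1.87), ZNF528 (1.83), ZNF761 (1.75), ZNF525 (1.73), ZNF528-AS1 (1.67), ZNF615 (1.61) and ZNF613 (1.55), all past the threshold. ZNF611 encodes a protein known to bind SVA elements, a family of composite human transposons that carry a piece of the LTR5 sequence. ZNF611 stood at 37.6 and 40.6 CPM with recruitment, at 9.59 and 9.53 CPM with LTR5HS Sa and at 12.4 and 11.4 CPM with nontarget Sp. Of the remaining 16 called members, the smallest rises were those of ZNF766 (0.68, adjusted p = 0.0152), ZNF320 (0.72, adjusted p = 0.00301) and ZNF816 (0.77, adjusted p = 0.0391).

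With CRISPRi the cluster fell. Of the 37 tested members, 26 were lower with recruitment and 0 were higher, where 1.98% of all 15520 tested genes were called lower. At an unadjusted p under 0.05, 32 were lower and 0 higher, and DESeq2 called 27 lower and 0 higher. The median log2 fold change of the members was -1.12, against 0.000596 over all tested genes, and all 37 estimates were below 0. The drop exceeded 2-fold in 23 called members and 4-fold in 6 (ZNF813, ZNF610, ZNF614, ZNF578, ZNF880 and ZNF808). Both recruitment libraries lay below all 4 controls in 33 of 38 members, and in 12% of all tested genes. The 33 include ZNF534, which was not tested with CRISPRi and had 1 and 0 counts with recruitment. Here the count of called members depended on single libraries. Without recruitment replicate 2 it was 10, made up of ZNF577, ZNF649, ZNF614, ZNF432, ZNF610, ZNF880, ZNF578, ZNF808, ZNF83 and ZNF813, while the median log2 fold change was -1.08. Without recruitment replicate 1 it was 18 and without the deepest control library 19. The fit that leaves 1 recruitment library assumes that this library varies like the others. Over all tested genes the count called lower fell as well. It went from 308 of 15520 to 227 of 15375 without the deepest control library, and further without a recruitment replicate.

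The deepest drop was that of ZNF813. It stood at 0.728 and 0.406 CPM with recruitment, at 10.3 and 9.39 CPM with LTR5HS Sa and at 11.3 and 10.9 CPM with nontarget Sp. No recruitment library came near a control, and the log2 fold change was -4.17 (SE 0.28, adjusted p = 1.7e-05). The recruitment libraries held only 13 and 6 counts of ZNF813. ZNF610, with S8 inside it, stood at 0.336 and 0.135 CPM with recruitment, at 3.47 and 3.10 CPM with LTR5HS Sa and at 3.67 and 3.81 CPM with nontarget Sp. Its log2 fold change was -3.83 (SE 0.38, adjusted p = 0.000171), with recruitment libraries that rested on few reads. ZNF614, with S5 inside it, stood at 2.13 and 0.812 CPM with recruitment, at 14 and 12.9 CPM with LTR5HS Sa and at 19.5 and 15.4 CPM with nontarget Sp, a log2 fold change of -3.36 (SE 0.34). ZNF578 stood at 0.728 and 0.474 CPM with recruitment and between 2.79 and 6.55 CPM in control, a log2 fold change of -2.99 (SE 0.42). Its lowest control was still several times its highest recruitment library, although the recruitment libraries held only 13 and 7 counts.

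ZNF880 fell by 2.29 on the log2 scale (SE 0.31, adjusted p = 0.00178), with 9 and 14 counts in the recruitment libraries. ZNF808, whose protein represses MER11 elements and whose loss impairs formation of the human pancreas, stood at 3.25 and 2.84 CPM with recruitment and between 9.39 and 16.2 CPM in control, a log2 fold change of -2.05. The other members among the 12 with the largest drops were ZNF577 (-1.99), ZNF528 (-1.99), ZNF528-AS1 (-1.92), ZNF432 (-1.67), ZNF600 (-1.59) and ZNF649 (-1.45). The smallest drops past the threshold were those of ZNF320 (-0.71, adjusted p = 0.0184) and ZNF766 (-0.81, adjusted p = 0.0282). ZNF534 had too few reads for a test within either fusion. It had 1 and 0 counts with recruitment and 10, 10, 3 and 29 counts in control, the 29 in the deepest library. In the dCas9-VPR lines it had 7 and 3 counts with recruitment and 26, 6, 8 and 2 in control, so its groups overlapped there.

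In 24 members the calls were reciprocal, higher with CRISPRa and lower with CRISPRi, where 1.51% of the 15145 genes tested with both fusions were. These 24 were 10.5% of the 228 genes with that pattern. The difference between the fusions was then tested directly, as the interaction of recruitment and fusion in a fit of all 12 libraries. It was positive and past the threshold in 30 of 38 members and negative in 0, where 11.5% of all 16673 tested genes were positive. The count stayed between 30 and 31 when any 1 library was left out. The largest interactions were those of ZNF813 (log2 difference 6.18, SE 0.28), ZNF578 (5.92, SE 0.46), ZNF614 (5.23, SE 0.37) and ZNF577 (4.95, SE 0.25). Those of ZNF813 and ZNF578 rest on few reads in the dCas9-KRAB recruitment libraries.

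**Figure D2:**
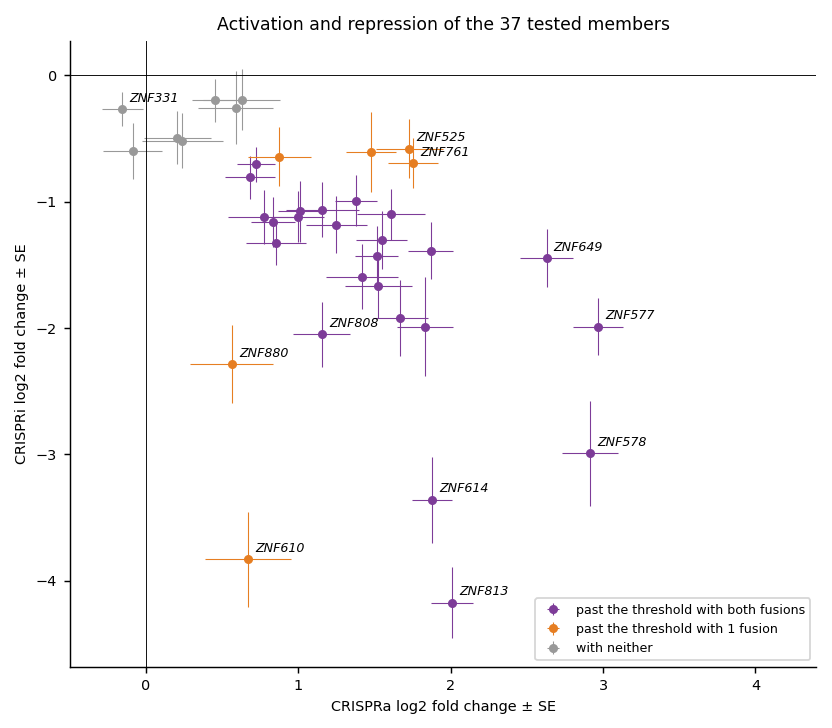
CRISPRa log2 fold change (horizontal) against CRISPRi log2 fold change (vertical) for the 37 tested members, with standard errors, coloured by how many fusions gave an adjusted p under 0.05. The 24 members past the threshold with both lie to the lower right, and ZNF610 and ZNF880 lie low with little displacement to the right.

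The other members among the 24 had smaller interactions. ZNF701 had log2 fold changes of 1.51 (SE 0.14) with CRISPRa and -1.43 (SE 0.24) with CRISPRi. ZNF350, whose protein is known as a partner of BRCA1, stood at 12.6 and 12.7 CPM with dCas9-VPR recruitment and between 4.42 and 6.47 CPM in control. With dCas9-KRAB it stood at 2.02 and 2.03 CPM with recruitment and between 4.27 and 5.16 CPM in control. Neither comparison overlapped, and its log2 fold changes were 1.25 and -1.18. The CRISPRa and CRISPRi log2 fold changes were 1.01 and -1.08 for ZNF841, 1.16 and -1.06 for ZNF616, and 1.38 and -0.99 for ZNF480. ZNF83 had 0.86 and -1.33, and ZNF615 and ZNF613, named above for CRISPRa, had -1.10 and -1.30 with CRISPRi.

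The sizes of the effects did not match member by member. Across the 37 members the CRISPRa and CRISPRi log2 fold changes had a Spearman's rho of -0.59 and a Pearson's r of -0.495, a description of neighbours in 1 stretch of chromosome measured in separate sets of 6 libraries. ZNF610 and ZNF880 were called with CRISPRi alone. ZNF610 stood at 5.18 and 5.24 CPM with dCas9-VPR recruitment and between 2.15 and 4.46 CPM in its controls, a log2 fold change of 0.67 (SE 0.28, adjusted p = 0.115). ZNF880 stood at 4.68 and 4.38 CPM and between 2.37 and 4.06 CPM, a log2 fold change of 0.56 (SE 0.27, adjusted p = 0.166). In both the recruitment libraries lay above the controls, by less than the test could call.

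The opposite held for ZNF347, ZNF525, ZNF765 and ZNF761, which were called with CRISPRa alone. ZNF761 stood at 57.3 and 49.6 CPM with dCas9-VPR recruitment and between 13 and 19.4 CPM in control, and 57.3 CPM was the highest level of any member in any library. With dCas9-KRAB recruitment it stood at 13.8 and 10.1 CPM, and in those controls between 15.2 and 22.1 CPM, a log2 fold change of -0.70 (SE 0.20, adjusted p = 0.113, and 0.0306 with the replicate block). ZNF525 stood at 42.6 and 48.0 CPM with dCas9-VPR recruitment and between 10 and 17.8 CPM in control. With dCas9-KRAB its recruitment libraries, at 11.3 and 7.72 CPM, overlapped the controls at 10.6 to 18.3 CPM. ZNF765, whose protein is known to bind LINE-1 sequences, rose by a log2 fold change of 1.48 with CRISPRa, and its CRISPRi estimate was -0.61 (SE 0.31). ZNF347 rose by 0.88 with CRISPRa, and its CRISPRi estimate was -0.65 (SE 0.24). All 4 passed the threshold of the interaction.

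The 14 members between S13 and S14 and the 3 after S14 held most of the exceptions. In the first stretch, from ZNF577 to S7, all 7 members were called with both fusions, with medians of 1.61 with CRISPRa and -1.45 with CRISPRi. Between S7 and S8, 4 of 6 were called higher and 5 of 6 lower. From S8 to S13, 6 of 7 tested members were called higher and 7 of 7 lower, with medians of 1.51 and -1.99. Between S13 and S14, 9 of 14 were called higher and 6 of 14 lower, with medians of 0.80 and -0.63. The 6 members at the start of that interval, ZNF611, ZNF600, ZNF28, ZNF468, ZNF320 and ZNF816, were called with both fusions, at CRISPRa log2 fold changes from 0.72 to 1.87 and CRISPRi log2 fold changes from -1.59 to -0.71. ZNF28 had 0.83 and -1.16, ZNF468 1.0 and -1.12, and ZNF816 0.77 and -1.12. Their starts lie 36.7 to 264.5 kb beyond S13, and their distances to the nearest match of any guide, single matches included, were 6.42 to 87.2 kb. By that definition 5 of the 14 members of the interval had a match within 50 kb, against 2 with a site of at least 2 guides.

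**Figure D3:**
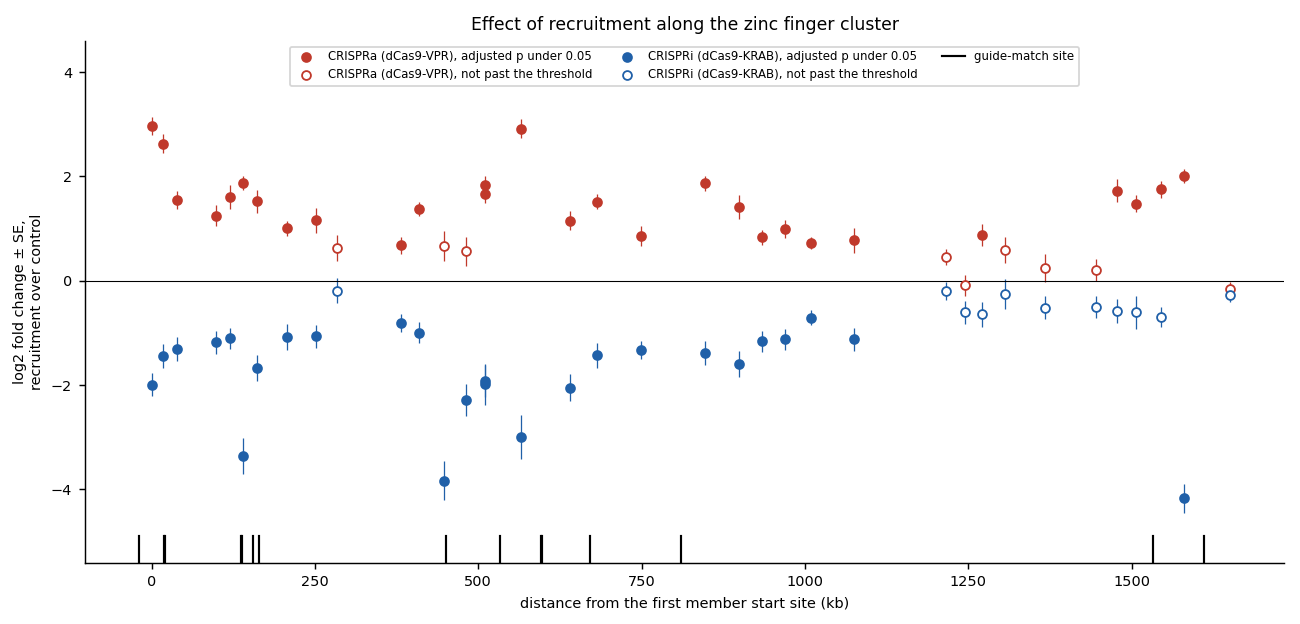
Log2 fold change with its standard error for each tested member, against the distance of its start from that of the first member in kb, for CRISPRa (red) and CRISPRi (blue). Filled points have an adjusted p under 0.05, and black ticks at the bottom mark the 15 guide-match sites. Open points gather in the interval of 722.5 kb without a site on the right.

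The next 6 in the interval, ZNF160, ZNF415, ZNF347, ZNF665, ZNF677 and ZNF845, included 5 of the 7 tested members that were called with neither fusion. ZNF160 stood at 38.2 and 33.0 CPM with dCas9-VPR recruitment and between 21.9 and 31.3 CPM in control, and its log2 fold change of 0.46 (SE 0.15) had an adjusted p of 0.0574, and of 0.0326 with the replicate block. With dCas9-KRAB its groups overlapped (-0.20, SE 0.17). ZNF415 stood at 7.96 and 8.39 CPM with dCas9-VPR recruitment and between 7.45 and 10.8 CPM in control, with a log2 fold change of -0.09 (SE 0.20). ZNF677, a gene often methylated in tumours, stood at 6.12 and 6.84 CPM and between 3.71 and 6.87 CPM. ZNF665 (0.59, SE 0.25) and ZNF845 (0.21, SE 0.22) did not pass with CRISPRa, and the CRISPRi estimates of ZNF415, ZNF665, ZNF677 and ZNF845 lay between -0.60 and -0.26.

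The other 2 were ZNF836 and ZNF331. ZNF836, 119.1 kb from the nearest site, had log2 fold changes of 0.63 (SE 0.25) with CRISPRa and -0.19 (SE 0.24) with CRISPRi. ZNF331, an imprinted gene at the far end of the cluster, has S15 at 39.9 kb. It stood at 23.8 and 23.4 CPM with dCas9-VPR recruitment, at 27.9 and 28.0 CPM with LTR5HS Sa and at 24 and 25.1 CPM with nontarget Sp. With dCas9-KRAB it stood at 31.1 and 27.0 CPM with recruitment and between 32.5 and 38.2 CPM in control. Its recruitment libraries were the lowest with either fusion, at log2 fold changes of -0.15 (SE 0.13) and -0.27 (SE 0.13), and its interaction of 0.11 (SE 0.17) was the smallest of any member. The change in the same sense with both fusions did not pass the threshold in either.

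The members were also divided by whether a site lies within 50 kb of their start. A start is that of the canonical transcript in the annotation. The RefSeq promoters of ZNF83 (chr19:52690447-52690746) and ZNF331 (chr19:53520764-53521063) lie apart from these starts, nearer to S13 and S15. By its start, 61.1 kb from S13, ZNF83 counts as a member without a site within 50 kb. Of 21 tested members with a site within 50 kb, CRISPRa raised 18 and CRISPRi lowered 18, with medians of 1.55 and -1.45. Of 16 without, 10 were higher and 8 lower, with medians of 0.75 and -0.68. No test was made of this difference, since neighbouring members share their sites. Over all genes, 414 of 611 tested genes with a site within 50 kb rose with CRISPRa (median 0.98) and 181 of 558 fell with CRISPRi (median -0.50). Of genes without one, 1921 of 14161 were higher and 1860 lower with CRISPRa (median -0.04). With CRISPRi 124 of 13577 were higher and 94 lower (median 0.00932). Across the 37 members, distance and log2 fold change had a Spearman's rho of -0.667 with CRISPRa and 0.636 with CRISPRi, again as a description. For the level per length in control these were -0.235 and 0.188.

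**Figure D4:**
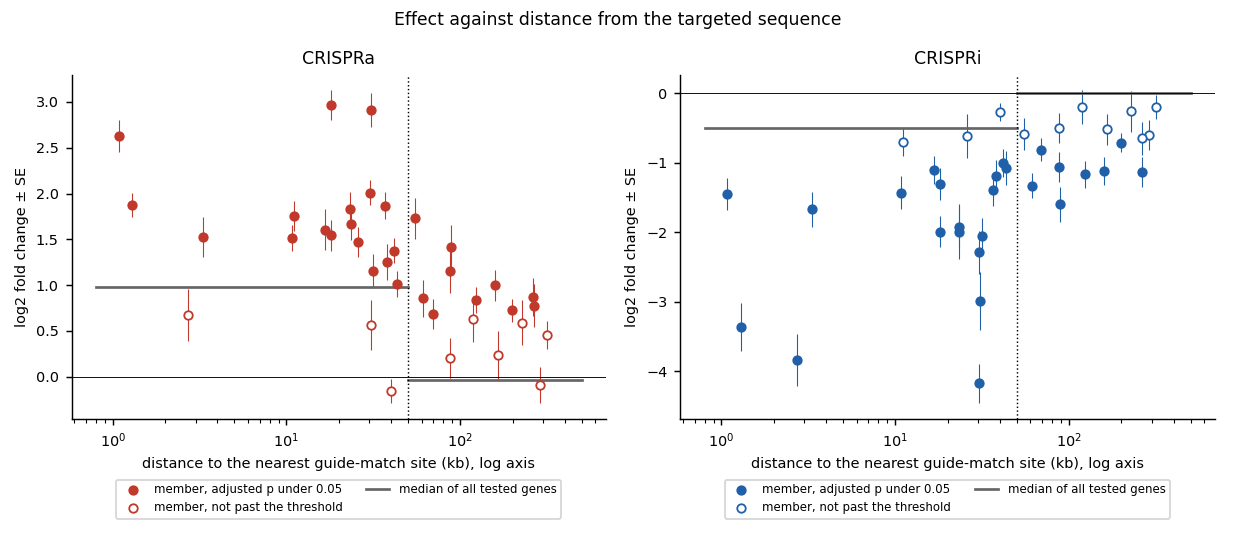
Log2 fold change with its standard error of each tested member against the distance from its start to the nearest guide-match site (kb, log axis), for CRISPRa on the left and CRISPRi on the right. Grey lines are the medians of all tested genes with and without a site within 50 kb (dotted line): 0.98 and -0.04 with CRISPRa, -0.50 and 0.00932 with CRISPRi.

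The nearest site did not give the order of the effects. ZNF649 at 1.08 kb, ZNF614 at 1.29 kb, ZNF610 at 2.73 kb and ZNF432 at 3.30 kb had CRISPRa log2 fold changes of 2.63, 1.88, 0.67 and 1.53, and CRISPRi log2 fold changes of -1.45, -3.36, -3.83 and -1.67. In ZNF614 and ZNF610 the site lies inside the gene and downstream of the start, and in ZNF649 it lies upstream. ZNF813, with the deepest CRISPRi drop, has S15 at 30.2 kb downstream of its start and a match to a single guide at 7.24 kb. When up to 1 mismatch per guide was allowed, ZNF813 had a site of at least 2 guides at 0.757 kb. ZNF577 and ZNF578, with the largest CRISPRa rises, have their nearest sites at 18.2 and 30.7 kb.

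ZNF528 and ZNF528-AS1 start 136 bp apart on opposite strands and moved together. ZNF528 stood at 23.8 and 27.7 CPM with dCas9-VPR recruitment and between 5.78 and 8.34 CPM in control, and at 1.01 and 0.406 CPM with dCas9-KRAB recruitment and between 2.17 and 3.47 CPM in control. ZNF528-AS1 stood at 13.5 and 16.7 CPM against 4.21 to 5.26 CPM, and at 1.12 and 0.609 CPM against 3.06 to 3.53 CPM. None of the groups overlapped. The annotated exons of the pair do not overlap, but the strand setting of the counting is not given in the sources used here, and without strand, reads of antisense partners cannot be told apart where transcripts extend into each other. The stretch between the annotated ends of the pair, and the 100 bases before the starts of ZNF578 and ZNF813, are shown as examples from the 7 members that were among the 12 with the largest changes with both fusions. The others were ZNF577, ZNF649 and ZNF614. Sequences are from hg38, plus strand, and capitals mark CCGGAAG, the core recognised by ETS factors, which the stretch of ZNF813 does not hold.
ZNF528-AS1 to ZNF528, chr19:52397792-52397848: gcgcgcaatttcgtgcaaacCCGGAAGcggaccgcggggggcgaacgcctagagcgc
ZNF578, chr19:52453453-52453552: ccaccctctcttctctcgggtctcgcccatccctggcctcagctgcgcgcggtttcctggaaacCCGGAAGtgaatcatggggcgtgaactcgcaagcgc
ZNF813, chr19:53467633-53467732: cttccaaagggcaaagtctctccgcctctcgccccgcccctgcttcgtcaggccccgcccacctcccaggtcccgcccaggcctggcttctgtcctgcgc

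The promoters of the members shared sequence features that the list was not chosen on. A RefSeq promoter on GRCh38.p14 (300 bases, from 250 before to 50 after the start) was given for 32 members. On either strand, CCGGAAG occurred in 20 of these 32 (62.5%), against 10.7% of 27305 promoters, and GGGCGG, the core of the SP1 motif, in 27 (84.4%), against 44.6%. TATAAA occurred in 0 of 32, against 12%, and CCAAT in 8 (25.0%), against 35.7%. The median number of CG dinucleotides was 25, against 14. These are letter matches, and they were not tested against the response. The promoters of ZNF528 and ZNF528-AS1 overlap and were counted separately, and members that arose by duplication can share sequence. Promoters of other ZNF genes were not compared. Of the 12 members without CCGGAAG, 9 were called with at least 1 fusion, ZNF577 and ZNF614 among them, and 3 (ZNF836, ZNF415 and ZNF331) with neither. Of the 19 tested members with it, 16 were called with at least 1 fusion and 3 (ZNF160, ZNF677 and ZNF845) with neither.

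The members are close paralogs, so part of their sequence can attract reads of relatives. Of the 50-base stretches of their exons, between 0.814% (ZNF350) and 19.5% (ZNF765) occurred exactly elsewhere in the genome, with a median of 6.01%, and ZNF600 had 17.4% and ZNF808 12.6%. With 100-base stretches the median was 0.0830% and the highest 6.29%, and 18 members had none. The reads were pairs of 150 bases. How reads that match several places were counted is not given in the sources used here, so small differences between close paralogs are uncertain. Some exons also overlap those of neighbours, such as 118 bp between ZNF577 and ZNF649 and 308 bp between ZNF649 and its antisense gene ZNF649-AS1.

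A comparison of the control arrays shows how far members moved between lines that lack recruitment to LTR5HS. Between LTR5HS Sa and nontarget Sp in the dCas9-VPR lines, 1 of 37 members passed the threshold, where 4.78% of all 16271 tested genes did, and with the replicate block 7 of 37 did, where 21.5% of all tested genes did. The member called without the block was ZNF525, at 11 and 10 CPM with LTR5HS Sa and 17.8 and 16 CPM with nontarget Sp (log2 difference -0.66, SE 0.16, adjusted p = 0.0436), and its call was lost without any 1 dCas9-VPR library other than nontarget Sp replicate 2, which left 0 members. In the dCas9-KRAB lines 0 of 37 passed in edgeR's quasi-likelihood test, where 3 had an unadjusted p under 0.05, and 0 in DESeq2's Wald test. Of all tested genes 0.728% passed with edgeR. The 3 with an unadjusted p under 0.05 were all lower with LTR5HS Sa. The median log2 difference of the members was -0.21, against 0.00355 over all tested genes. Estimates above 0 were 3 of 37, and 7854 of 15520 over all tested genes. With CRISPRi, 21 members were called lower with LTR5HS Sa alone as control and 26 with nontarget Sp alone, where 367 of 15078 and 418 of 15525 genes were.

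Zinc finger genes that are not members gave a wider frame for these counts. Of the other ZNF genes on chromosome 19, 46 of 186 tested were higher with CRISPRa and 1 lower, with a median of 0.32, and 13 of 183 were lower with CRISPRi and 0 higher, with a median of -0.19. They include ZNF888, which lies within the span of the cluster and was called with both fusions. Outside the span the counts were 45 of 185 higher and 12 of 182 lower. Those with a site within 50 kb were 17 of 27 and 9 of 27, with medians of 1.01 and -0.70, ZNF675 among them at 2.79 and -1.10. Of ZNF genes on other chromosomes, 28 of 222 were higher and 9 lower with CRISPRa, and 7 of 220 lower with CRISPRi. ZNF696, with a site at 3.58 kb, had log2 fold changes of 3.70 and -0.60, and ZNF695, at 7.88 kb, of 2.96 and -0.83. Genes with no site within 50 kb also changed. ZNF503, at 6875 kb, rose by a log2 fold change of 2.29 with CRISPRa. The CRISPRi log2 fold change was -3.30 for ZNF16, at 70.9 kb, and -2.52 for ZNF397, at 3430 kb.

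**Figure D5:**
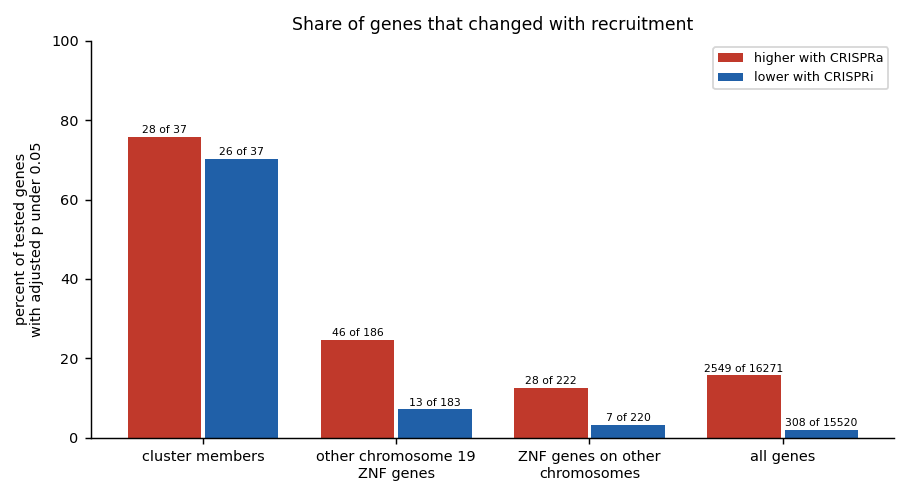
Percent of tested genes with an adjusted p under 0.05, higher with CRISPRa (red bars) and lower with CRISPRi (blue bars), for the cluster members, the other ZNF genes on chromosome 19, the ZNF genes on other chromosomes and all genes. The count called and the count tested stand above each bar: 28 of 37 and 26 of 37 for the members.

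The span of the cluster also holds 18 other genes, of which 9 were tested with CRISPRa and 8 with CRISPRi. Of these, 8 rose with CRISPRa and 4 fell with CRISPRi, with medians of 1.47 and -1.06. PPP2R1A, which encodes the scaffold subunit of protein phosphatase 2A, was by far the most highly expressed, with mean levels of 728 CPM with dCas9-VPR recruitment and 488 CPM in control, a log2 fold change of 0.58 (adjusted p = 0.0193), and of -0.09 (adjusted p = 0.854) with CRISPRi. ERVV-2, an envelope gene of an endogenous retrovirus, had log2 fold changes of 1.24 and -1.49, both past the threshold. It lies 346.4 kb from the nearest site of at least 2 guides, with single matches not counted. The zinc finger gene ZNF888 (1.73 and -1.01) and the pseudogenes ZNF137P (1.47 and -1.44) and ZNF702P (1.2 and -1.1) were also called with both fusions.

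Partners through which KRAB zinc finger proteins act were followed as a list of 25, of which 24 were in the table. The list also holds ZFP57, itself a KRAB zinc finger protein, which was in the table but not tested. Of 23 tested genes of that list, 2 were higher and 5 lower with CRISPRa, with a median of -0.05, where 15.7% of all tested genes were higher and 12.3% lower. With CRISPRi 0 passed in edgeR, where 0.883% of all tested genes were higher and 1.98% lower. An unadjusted p under 0.05 was found in 8 (7 lower and 1 higher), and in 2073 of all 15520 tested genes. DESeq2 called 1 higher and 2 lower, where it called 250 and 466 of all 15520 tested genes. TRIM28, the corepressor that KRAB domains bind, had log2 fold changes of -0.14 (SE 0.23) and 0.10 (SE 0.17), and SETDB1 of 0.05 (SE 0.10) and -0.03 (SE 0.10). MPHOSPH8, a subunit of the HUSH silencing complex with a site at 32.9 kb, rose with CRISPRa by 1.38 (SE 0.09, adjusted p = 1.73e-05), and CHD3 rose by 0.89. CHAF1B, DNMT3B, CHAF1A, DNMT1 and CBX1 were lower with CRISPRa, from -1.22 for CHAF1B to -0.31 for CBX1.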

How the data were processed

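RNA-seq libraries of 6 NCCIT lines (2 replicates each, 12 in all) were compared. Per the labels and the study's methods, the authors used cutadapt for trimming, HISAT2 for alignment to hg38 and featureCounts for counting per gene, and the submitters' processing notes list cutadapt 1.8.1, HISAT2 2.1.0, featureCounts 1.4.6-p2 and CASAVA 1.8. The deposited values are raw counts per gene, without normalization. The other deposited column is the gene length in bp. The annotation, the strand setting and the treatment of reads with several matches are not given in the sources used here.

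Counts were tested on the whole table with edgeR 4.0.16 in R 4.3.3 (filterByExpr, TMM, robust quasi-likelihood F-test, Benjamini-Hochberg, threshold 0.05), for recruitment against control within each fusion, their interaction over 12 libraries, and LTR5HS Sa against nontarget Sp. On simulated counts with 200 changed genes the pipeline was tested before use. Totals per library and the 3-count floor are in the report and cover counting error only. Symbols were matched to GENCODE 44 (23045 genes, 86.5%), and 28 names that read as dates were kept in the tests and not named. Guide sequences came from the study's list of designed guides. The rest was done in Python 3.11.15 with NumPy 2.4.6, pandas 2.3.3, matplotlib 3.10.9 and SciPy 1.17.1.

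The members, gene lists and tests were chosen with earlier results of these data known. All 38 members were accounted for, with the 12 largest changes per fusion, those past the threshold with both fusions or in the interaction, and the highest and lowest per length named. Called genes of the other lists were named as examples after their values were seen. Same-numbered replicates deviated together across arrays (Pearson's r 0.289 to 0.4 for dCas9-VPR and 0.195 to 0.467 for dCas9-KRAB over 16673 genes), so the numbers were taken to pair the samples, and a fit with the replicate block was made. The labels call the replicates independent and do not say what a number shares. Other alternatives were DESeq2 1.42.0, its size factors in edgeR, other filters, thinned counts, each control array alone, the arrays as separate groups, a stricter threshold (0.01), the omission of each library, and other definitions of a site. Repeat counts and ChIP-seq were not analysed here.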

Additional observations from a re-analysis of the deposited data

Results flagged for a closer look

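In 30 members the effect of recruitment differed between the fusions by the interaction test in edgeR, with every one of the 30 more positive with dCas9-VPR. The other 8 (ZNF836, ZNF534, ZNF160, ZNF415, ZNF665, ZNF677, ZNF845 and ZNF331) did not pass it.

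Among 76 groups of 4 control libraries, 3 held a library that stood apart from the other 3 by Dixon's ratio. Chance alone flags about 1 in 20 such groups. ZNF701 stood at 9.13 CPM in dCas9-VPR nontarget Sp replicate 1 and between 7.78 and 7.85 CPM in the other controls. It stood at 9.99 CPM in dCas9-KRAB nontarget Sp replicate 1 and between 7.29 and 7.45 CPM in the others. ZNF320 stood at 24.7 CPM in dCas9-VPR nontarget Sp replicate 1 and between 21.5 and 22.1 CPM in the others. Both genes were called with both fusions with and without these libraries.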

How the results depend on the processing

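The number of members called higher with CRISPRa was between 23 and 31 under every alternative run, and that of the interaction between 24 and 31, with 0 members called in the other direction. With CRISPRi, 26 members were called lower in the main analysis, 15 at a threshold of 0.01, and between 10 and 27 when each library was left out in turn, with the 10 found without recruitment replicate 2. Between the control arrays of dCas9-VPR 1 member was called, 0 at a threshold of 0.01, 7 with the replicate block (where 21.5% of all tested genes were), and 0 to 1 when each library was left out. Between those of dCas9-KRAB 0 were called under every alternative run. Over all tested genes the CRISPRi count called lower also fell. It went from 308 of 15520 to 227 of 15375 without the deepest control library, and further without a recruitment replicate. The replicate block changed 3 other calls, those of ZNF160 with CRISPRa (adjusted p = 0.0326) and in the interaction (0.0321) and of ZNF761 with CRISPRi (0.0306), which then passed in edgeR. The estimates that changed sign all belonged to members that were not called. With LTR5HS Sa alone as control they were ZNF415 (0.0792) and ZNF677 (-0.0261) with CRISPRa and ZNF665 (0.0827) with CRISPRi. When each library was left out in turn, ZNF415 ranged from -0.155 to 0.0273 with CRISPRa and ZNF836 from -0.531 to 0.0617 with CRISPRi, the upper ends without dCas9-VPR nontarget Sp replicate 1 and without dCas9-KRAB LTR5HS Sp replicate 2. The filter of at least 10 counts in every library left 31 members to test. Of these, 24 passed in the interaction and 20 were lower with CRISPRi. With counts thinned to the lowest total, 21 of 37 were lower with CRISPRi. Members with a guide-match site numbered 10 within 20 kb. The median share of exon stretches found elsewhere was 0.0830% with 100 bases. The cause of these shifts was not tested, other than the shorter distance and longer stretch by construction. With 2 recruitment libraries per fusion, and fewer than 10 counts in some library for 6 of the 37 members with CRISPRi, depth limits the lowest levels with dCas9-KRAB recruitment.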
